A study of Mus musculus with 7 samples.

Results

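The fatty acid elongases and desaturases comprised 10 mouse genes, the 7 elongases Elovl1 to Elovl7 and the 3 desaturases Fads1 to Fads3. They were taken by symbol from 21536 protein-coding genes with a known strand. A binding peak was assigned to a gene when its midpoint lay in the gene span or within 50 kb of it. This window rule held 421 of the 245004 peaks in the 6 lists, over 1.28 Mb and 8 separate loci. Fads1, Fads2 and Fads3 lie side by side on chromosome 19, so that a peak there can belong to more than 1 window, and totals over the genes count it once.

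Sequencing of immunoprecipitated chromatin (ChIP-seq) was performed on livers of wild-type male C57BL/6 mice aged 3 months. The mice were fed a normal (control) diet or one containing retinoic acid (RA), by the labels for 1 day; the study's methods give a longer treatment, so the duration is not settled. Antibodies were directed at the α and β retinoic acid receptors (RARα, RARβ) and at the retinoid X receptor α (RXRα), which gave 1 library and 1 peak list per receptor and diet. With 1 library a group there is no replicate and no test, and every difference below describes these libraries alone; the intervals cover counting error only.

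RXRα is the shared partner of many nuclear receptors, among them the RARs, the liver X receptors and PPARα, and it binds DNA with them as a dimer. The elongases add carbon units to long fatty acids in the endoplasmic reticulum, and the desaturases insert double bonds. In liver, elongases lengthen saturated and monounsaturated fatty acids. Together, the 2 enzyme families convert dietary linoleic and α-linolenic acid into arachidonic acid and docosahexaenoic acid.

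The lists differed in length, from 14968 peaks (RARβ, control diet) to 61128 (RXRα, control diet). The number of reads behind each list is not known, and deeper sequencing can lengthen a list. The peak score was therefore used only as a rank within its list, given as a percentage of the list, so that small percentages mark the highest scores. Because the lists differ in length, a rank that differs between lists is a position in each list and does not show a change in binding. Peaks near genes do not measure expression. As a check of the labelled tissue, 10 of 10 hepatocyte genes carried RXRα peaks at most 10 kb from the start in each diet, against 3 of 12 genes of other liver cells in each and 3 and 4 of 6 genes of other tissues. Of all protein-coding genes, 61.3% (control) and 61.7% (RA) had such an RXRα peak. The genes of other tissues, at 50% and 66.7%, lay on either side of this share. The RARα control list did not separate the gene groups in this way. It had 4 of 10 hepatocyte genes, 5 of 12 genes of other liver cells and 3 of 6 genes of other tissues. In the same order of groups, the RARα list of the RA diet had 7, 6 and 3 genes. The RARβ control list gave 5, 0 and 1, and its RA counterpart 8, 2 and 1. All-gene shares were 61.9% and 63.3% for RARα, 44.1% and 54.7% for RARβ. In whole liver, fewer cells with a bound site and weaker binding in every cell cannot be told apart.

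Because RAR and RXR recognise copies of a short hexamer, the sequence just upstream of the starts was examined for the 8 genes with an entry in the RefSeq promoter table of GRCm38.p6. Fads1 and Elovl3 had no entry. The hexamer was searched on both strands as the consensus AGGTCA and as its variants, GGGTCA being the first, AGTTCA the second and GGTTCA the third. Of all 32851 promoters of 250 bases, 38.6% held at least 1 of these words and 14% held AGGTCA itself. Among the genes studied here it was found in 1 stretch each for Elovl5 and Elovl6 and in both entries of Elovl1, and it was not found in the entries of Elovl2, Elovl4, Elovl7, Fads2 and Fads3. The following 5 stretches are shown as examples, 3 with a matching word and 2 without one that also carried peaks; the second Elovl1 entry and those of Elovl2, Elovl4 and Fads3 are not printed. Capitals mark the word, read on the printed strand, and each stretch ends at the base before an annotated start, which lies 1219 bp inside the outermost span for Elovl1 and 78 bp inside it for Elovl7. Elovl1 lies at chr4:118427843-118428092 (plus strand), Elovl5 at chr9:77917115-77917364 (plus), Elovl6 at chr3:129532136-129532385 (plus), Fads2 at chr19:10101504-10101753 (minus) and Elovl7 at chr13:108214154-108214403 (plus).
Elovl1: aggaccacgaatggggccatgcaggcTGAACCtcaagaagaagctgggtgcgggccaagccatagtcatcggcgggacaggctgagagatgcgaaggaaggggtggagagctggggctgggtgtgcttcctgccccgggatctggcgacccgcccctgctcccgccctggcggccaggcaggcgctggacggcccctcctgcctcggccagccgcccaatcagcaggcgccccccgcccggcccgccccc
Elovl5: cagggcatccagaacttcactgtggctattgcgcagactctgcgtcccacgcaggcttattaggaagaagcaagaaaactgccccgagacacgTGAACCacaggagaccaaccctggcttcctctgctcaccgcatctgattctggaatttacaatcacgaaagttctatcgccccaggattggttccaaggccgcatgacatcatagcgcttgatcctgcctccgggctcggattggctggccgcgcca
Elovl6: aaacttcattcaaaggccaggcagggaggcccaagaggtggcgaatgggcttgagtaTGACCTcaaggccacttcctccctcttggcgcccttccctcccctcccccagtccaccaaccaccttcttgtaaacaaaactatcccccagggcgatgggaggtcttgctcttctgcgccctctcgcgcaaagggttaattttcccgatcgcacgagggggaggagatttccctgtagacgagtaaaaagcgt
Fads2: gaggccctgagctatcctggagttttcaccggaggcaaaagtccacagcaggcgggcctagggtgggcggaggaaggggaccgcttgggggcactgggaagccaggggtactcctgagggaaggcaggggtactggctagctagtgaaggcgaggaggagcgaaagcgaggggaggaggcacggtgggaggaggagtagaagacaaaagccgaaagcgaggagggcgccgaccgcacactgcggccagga
Elovl7: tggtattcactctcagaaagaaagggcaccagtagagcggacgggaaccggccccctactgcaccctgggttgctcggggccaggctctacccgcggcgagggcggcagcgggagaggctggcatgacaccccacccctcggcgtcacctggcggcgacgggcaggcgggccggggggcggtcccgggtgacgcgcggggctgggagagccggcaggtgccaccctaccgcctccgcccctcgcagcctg

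The word began at position -224 in Elovl1, -157 in Elovl5 and -193 in Elovl6, counted from the annotated start of each stretch. The peaks overlapping these stretches came from 6 lists for Elovl1, 5 for Elovl5, 5 for Elovl6, 5 for Fads2 and 2 for Elovl7. Thus stretches with and without a matching word were both overlapped by peaks. The Elovl6 word was the only one of those printed that spells AGGTCA, here on the other strand as TGACCT. The second Elovl1 entry, not printed, also holds TGACCT, at -95. It was overlapped by a peak of 1 list, RXRα under the control diet, at 87.4%. The stretches were rich in G and C, from 55.6% in Elovl5 to 87.2% in the first entry of Elovl2, against a median of 52.4% over all promoters. A match describes these letters and is not evidence of a binding site.

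Peaks lay close to the starts of most of the 10 genes, and the exceptions were recurrent. Within 10 kb of the start, RARα had a peak at 9 of 10 genes under the control diet and at 9 under RA, where all protein-coding genes gave 61.9% and 63.3%. RARβ had one at 6 genes under the control diet and at 9 under RA, against 44.1% and 54.7% of all genes. RXRα had one at 9 and at 8 genes, against 61.3% and 61.7%. With every list cut to its 14968 highest scores, 4 genes had an RXRα peak this close in each diet. Under the same cut 6 genes had a RARβ peak in each diet, so the rise from 6 to 9 was absent. Shares of all genes under this cut are not given here, and those above come from the full lists. In the full lists, Elovl7 lacked a peak within 10 kb for RARα and RXRα in both diets. Elovl4 lacked it in both RARβ lists and in the RXRα list under RA. The 4 genes without it in the RARβ control list were Elovl2, Elovl4, Fads2 and Fads3. Elovl1, Elovl3, Elovl5, Elovl6 and Fads1 had a peak within 10 kb in all 6 lists, 5 of 10 genes against 38.2% of all genes.

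At a distance of 1 kb, 7 and 7 genes had a RARα peak (45.9% and 46.2% of all genes), 4 and 6 a RARβ peak (33.1% and 40.3%) and 5 and 5 an RXRα peak (40.1% and 41.9%), for control and RA in that order. Fads1 was the only gene with a peak this close to its outermost start in all 6 lists, 1 of 10 against 24.7%. Elovl1 was counted without one because its peaks lay at an annotated start 1219 bp inside the span. All 10 windows held at least 1 peak in every list, which was also common elsewhere: the windows of all genes held a RARα peak in 83.7% and 84.8% of cases, a RARβ peak in 70.2% and 77.8% and an RXRα peak in 83.7% and 84.3%.

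Strong RXRα peaks were frequent in these windows. A peak from the highest-scoring 10% of the RXRα list lay in 8 of 10 windows under the control diet and in 7 under RA, against 34.3% and 33.0% of all genes. For RARα the numbers were 6 and 4, against 36.2% and 40.2%, and for RARβ 1 and 4, against 18.4% and 29.1%. The median window held 11 RXRα peaks per 100 kb under the control diet and 9.1 under RA, where the median of all genes was 3.77 and 3.69. Median densities of RARα were 4.8 and 6.78 (all genes 2.66 and 3.07) and of RARβ 1.67 and 4.58 (0.957 and 1.92). The excess of the median over the typical gene was therefore seen for all 3 receptors, and the 3 desaturases share part of their windows. It did not hold for every gene. Elovl4 and Elovl7 were below the typical gene in all 6 lists. The share of genes with a lower density was 28.7% to 40.2% for Elovl4 and 26.1% to 38.1% for Elovl7.

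**Figure D1:**
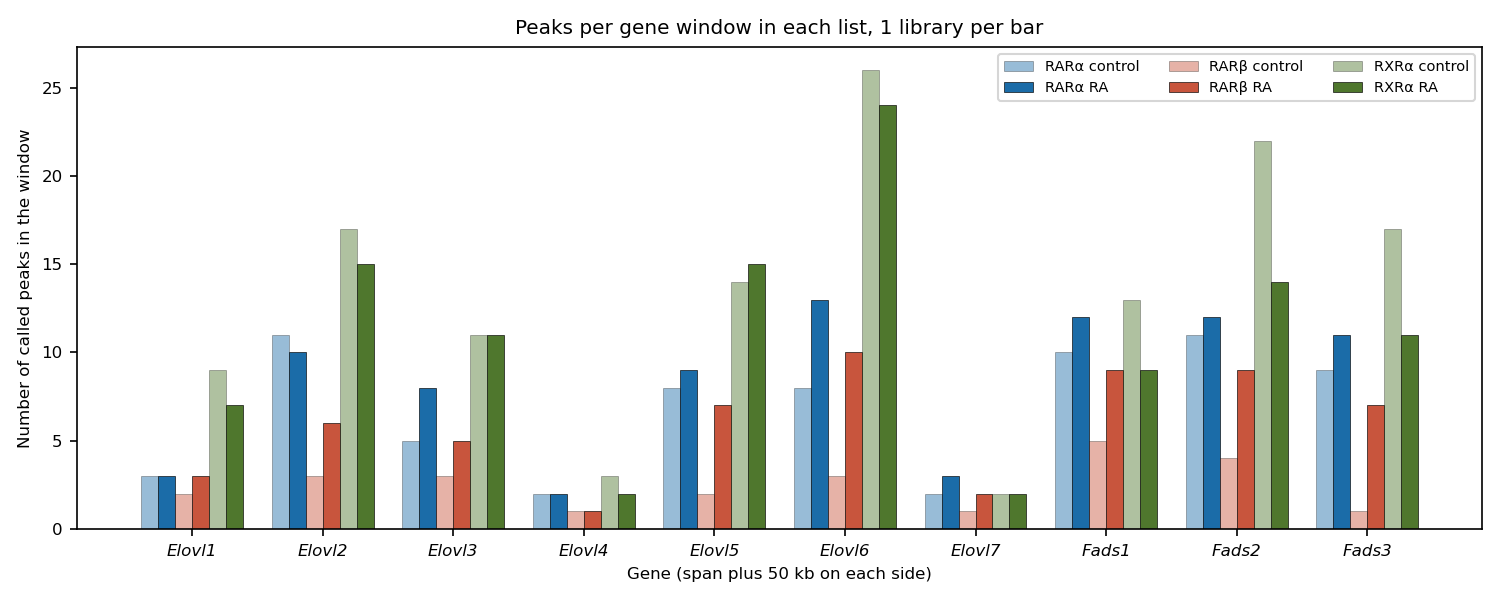
Number of called peaks (vertical axis) in the window of each gene (horizontal axis), with 1 bar per list and receptor colours in pale for the control diet and full for RA. Elovl6 held the most RXRα peaks, 26 on the control diet and 24 with RA, and Elovl4 and Elovl7 held no more than 3 peaks in any list.

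Elovl6 lengthens palmitate to stearate and is the elongase of newly made fatty acids. Its window, around a gene span of 106 kb on chromosome 3, held 26 RXRα peaks on the control diet and 24 with RA, 8 and 13 peaks of RARα, and 3 and 10 of RARβ. RXRα was thus dense and nearly level between the diets, while both RARs had more peaks under RA. Merged across lists, these peaks formed 30 regions, of which 22 were called for RXRα in both diets and 13 for RXRα alone among the receptors. No region of this window was called for RARβ in both diets; 3 were called under the control diet alone and 9 under RA alone.

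The highest-ranked RXRα peak of Elovl6 lay inside the gene, 59.4 kb from the start, at 5.23% of the control list and 4.69% of the RA list. Beside it, RARα peaks ranked at 59.4% (59.3 kb) and 63.1% (59.6 kb), and RARβ was called under RA alone, at 43.6%. At the promoter shown above, RXRα ranked at 17.7% and 11.6%, RARα at 51.5% and 31.2%, and RARβ was again called under RA alone, at 62.0%. RXRα therefore held a higher rank than either RAR at both places, in both diets. At 32.7 kb inside the gene, RXRα was called in both diets at 6.48% and 10.6%, and RARα and RARβ under RA alone at 70.2% and 71.5%. A region 149.7 kb downstream of the start had the same calls, with RXRα at 15.0% and 9.02%, RARα at 47.5% and RARβ at 32.6%. It lies past the end of Elovl6, and Egf has the nearest start, at 73.3 kb.

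Elovl1 lengthens saturated fatty acids to the very long chains found in ceramides. Its start region, chr4:118427557-118429537, was called in all 6 lists: RARα ranked at 16.0% under the control diet and 33.1% under RA, RARβ at 20.9% and 45.2%, and RXRα at 43.2% and 40.8%. No receptor reached the highest 10% of its list there in either diet. The best-ranked RXRα peak of the window, at 8.33% and 4.82%, lay 50.5 kb downstream and was nearest to the start of Tie1.

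Elovl3 makes saturated and monounsaturated very long chains and is known for its rhythmic expression in liver. At its start, RARα ranked at 50.5% and 20.5% for control and RA, RARβ at 26.3% and 47.4%, and RXRα was called under RA alone, at 96.1%. The RARs thus ranked above RXRα at this start, where RXRα was near the bottom of its list. Just past the 3′ end, all 6 lists had a peak between 4.07 and 4.49 kb from the start: RXRα stood at 9.96% and 29.6%, RARα at 79.6% and 89.4%, and RARβ at 53.4% and 77.2%. Separate RARα peaks at 3.6 and 3.58 kb, inside the gene, ranked at 32.0% and 64.1% and were merged into the same region. The highest-ranked RARβ peak of all 10 windows lay 20.7 kb downstream of the Elovl3 start, at 1.34% of the control list and 0.282% of the RA list. It belongs by distance to another gene, since it lies 41 bp from the start of Gbf1. The best RXRα peak of the Elovl3 window, 40.1 kb upstream at chr19:46091436-46092228, ranked at 7.1% and 2.62%, had RARβ under RA alone at 81.1% and no RARα call; Nolc1 has the nearest start.

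Elovl7 acts on saturated very long chains. Its window was the sparsest for RXRα, with 2 peaks per diet, beside 2 and 3 RARα and 1 and 2 RARβ peaks. The start itself was called for RARβ alone, at 38.6% under the control diet and 70.8% under RA, in the stretch printed above. RXRα alone was called 15.1 kb inside the gene, at 40.7% and 52.1%. The only region of the window called for all 3 receptors lay 102.0 kb away, at 243 bp from the start of Depdc1b.

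Elovl5 and Elovl2 lengthen polyunsaturated fatty acids, Elovl2 on the last steps towards docosahexaenoic acid. Elovl5 had 14 RXRα peaks on the control diet and 15 with RA, 8 and 9 of RARα and 2 and 7 of RARβ, so that RARβ changed most in number. Its leading region near the start, 6.32 kb upstream at chr9:77910152-77911937, was called in all 6 lists. RARα ranked there at 9.9% and 14.0%, RARβ at 25.5% and 7.05%, and RXRα at 9.17% and 5.23%. At the start, RARα ranked at 16.0% and 22.6% and RARβ at 66.6% and 21.9%, whereas RXRα was called under the control diet alone, at 48.1%.

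Inside Elovl5, RXRα was strong at 26.2 kb, with 3.7% and 4.98%; RARα ranked low there at 96.0% and 78.9%, and RARβ was called under RA alone at 32.2%. At 33.7 kb, RXRα ranked at 13.8% and 16.6%, and RARα and RARβ were called under RA alone, at 46.5% and 42.5%. The highest-ranked RXRα peak of all 10 windows lay 113.8 kb downstream of the Elovl5 start, at 0.298% of the control list and 0.169% of the RA list. RARα ranked there at 70.0% and 47.6%, and RARβ was called under RA alone, at 4.14%. That region, chr9:78030511-78032027, is 20.7 kb from the start of Gcm1, which is nearer than Elovl5.

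Elovl2 had 17 RXRα peaks on the control diet and 15 with RA, 11 and 10 of RARα and 3 and 6 of RARβ. At its start, RARα ranked at 22.6% and 16.2% and RXRα at 91.5% and 63.2%, with no RARβ peak. RARα was thus the better-ranked receptor of this start in both diets. The best-ranked RXRα peak lay 24.4 kb inside the gene, at 5.95% and 11.8%, with RARα at 75.2% and 85.7% and RARβ under RA alone at 41.6%. Upstream, regions at 12.2 and 29.7 kb were called in all 6 lists, the second of them 294 bp from the start of Smim13, with RARα at 9.08% and 13.1%.

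Elovl4 makes the longest saturated and polyunsaturated chains, known from retina and skin. Its window held 2 and 2 peaks of RARα, 1 and 1 of RARβ, and 3 and 2 of RXRα. RARα was called 1.51 kb upstream of the start, at 35.9% and 16.2% of the control and RA lists, and RXRα there only in the control list, at 99.3%. No peak lay inside the gene in any list. The region called in all 6 lists was 28.2 kb upstream and 98 bp from the start of Ttk, where RARβ ranked at 19.9% and 5.86%.

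**Figure D2:**
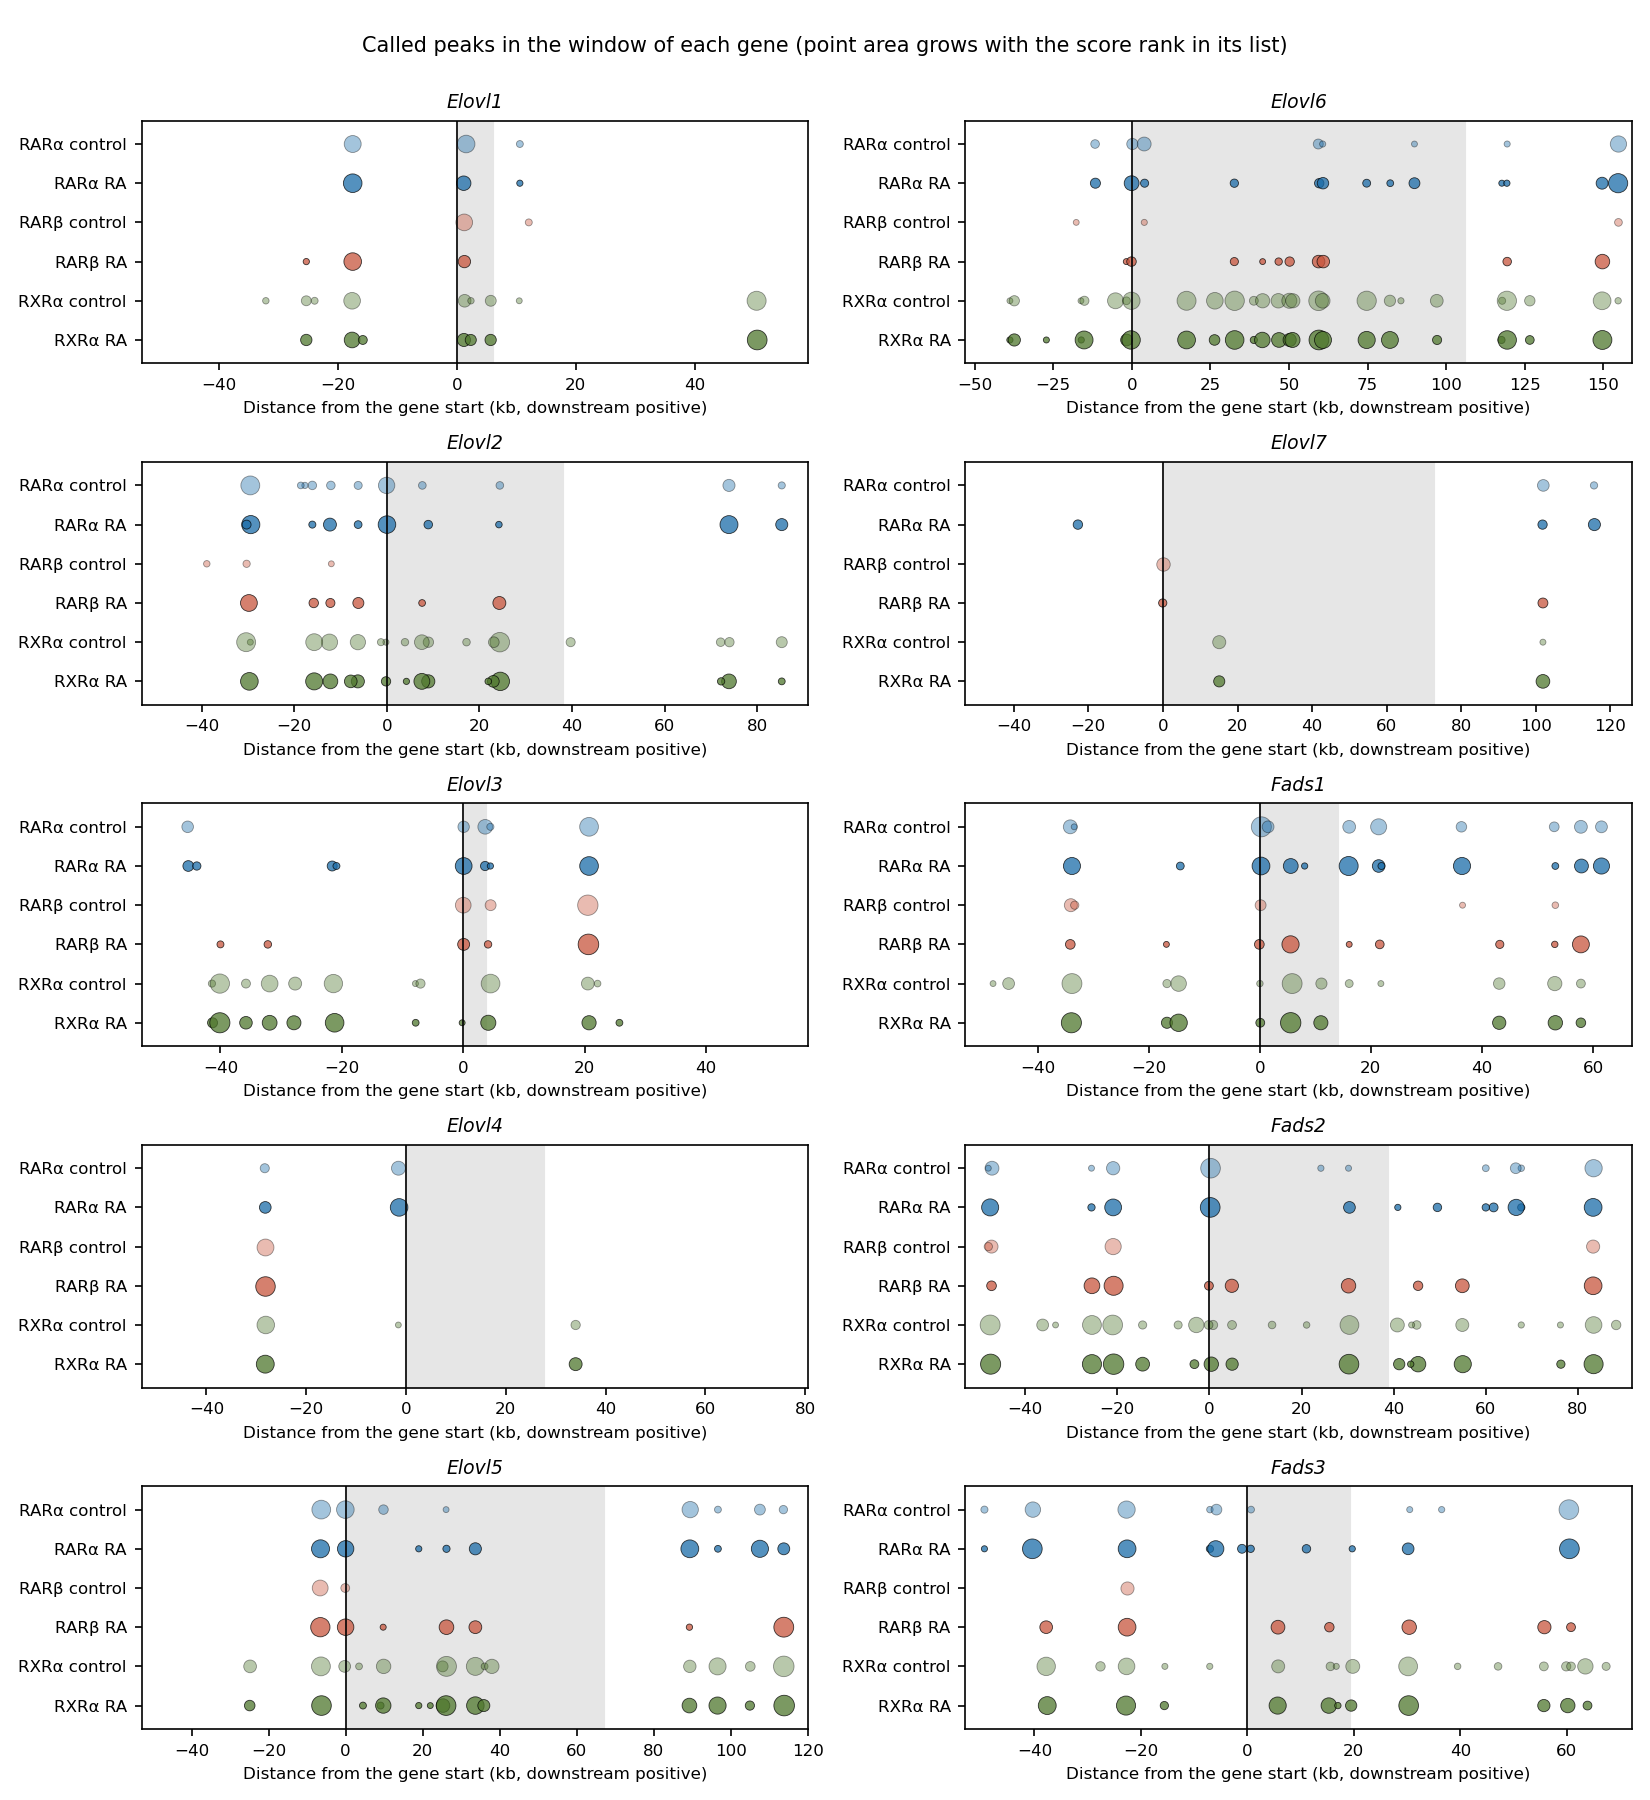
Position of each called peak from the outermost gene start (horizontal axes, kb, downstream positive) in the 6 lists (vertical axes), in 1 panel per gene, with the gene span shaded, control lists pale and RA lists full; the point area grows with the score rank. RXRα peaks fill the Elovl6 span, whereas no peak lies in the span of Elovl4.

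Fads1 and Fads2 carry out the Δ5 and Δ6 desaturation of polyunsaturated fatty acids, and Fads3 desaturates sphingoid bases. Counted once, the cluster held 33 RXRα peaks on the control diet and 23 with RA, 21 and 25 of RARα and 7 and 18 of RARβ. Its 43 regions included 23 called for RXRα in both diets, 9 under the control diet alone and 0 under RA alone. For RARβ the corresponding numbers were 5, 1 and 13, and for RARα 18, 2 and 6. In the genome, 17.6% of RXRα regions were called under the control diet alone and 15.8% under RA alone. Of the RARβ regions in the genome, 54.3% were called under RA alone. The 9 RXRα regions of the control diet alone ranked between 48.0% and 96.8%. RARβ was called under RA alone at those 16.1 and 21.4 kb from the Fads1 start, and not at the others. Most RARα calls of the cluster were common to both diets, as were 61.7% of RARα regions in the genome.

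At the Fads1 start (chr19:10182080-10183913) all 6 lists had a peak. RARα ranked at 3.2% under the control diet and 15.1% under RA, RARβ at 53.5% and 60.9%, and RXRα at 86.7% and 66.6%. This start was led by RARα, and RXRα was low in its list. At 5.71 kb inside Fads1 the order was the opposite. RXRα ranked there at 3.83% and 1.38%, and RARα and RARβ were called under RA alone, at 31.1% and 18.2%. The latter region, chr19:10187842-10189336, held the highest-ranked RXRα peak of the Fads1 window under RA and the highest-ranked RARβ peak of that window under RA.

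The Fads2 start resembled that of Fads1 in its ranks. RARα stood at 5.03% and 4.79%, the RXRα peaks overlapping the promoter at 67.2% and 33.5%, and RARβ was called under RA alone, at 66.5%. The leading RXRα site of the Fads2 window under RA was 21.0 kb upstream of Fads2, between Fads2 and Fads1, at chr19:10121656-10123382. It was called in all 6 lists: RXRα ranked at 4.66% and 1.02%, RARβ at 23.6% and 8.41%, and RARα at 39.6% and 20.4%. RXRα had the highest rank of the 3 receptors there in both diets. The cluster had further strong RXRα peaks 33.8 kb upstream of Fads1 (3.59% and 2.85%) and 30.2 kb inside Fads2 (9.52% and 5.09%); RARβ was called in both diets at the former, at 41.2% and 61.1%, and under RA alone at the latter, at 33.2%.

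At Fads3, RARα was the only receptor called at the start, low in its lists at 82.4% and 77.7%. RXRα ranked at 41.2% and 18.5% at 5.74 kb inside the gene, with RARβ under RA alone at 37.0%. The region called in all 6 lists lay 22.7 kb upstream, nearest to the start of Rab3il1, where RARα ranked at 17.7% and 15.2%, RARβ at 40.4% and 15.4%, and RXRα at 21.1% and 8.11%. In the Fads3 window RARβ had 1 peak under the control diet and 7 under RA. Of these, 0 and 2 were nearest to the Fads3 start, and the others were nearest to the starts of Fads2 or Rab3il1.

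With the full lists, the windows held fewer RXRα peaks under RA than under the control diet, and more peaks of both RARs. The intervals of the ratios treat control and RA peaks as separate counts, although most control peaks were shared between the diets. They therefore do not measure the difference between the diets. Those of RARα and RXRα included 1. In all windows together, RARα had 60 peaks under the control diet and 73 under RA, a ratio of 1.22 (95% interval 0.866 to 1.71), and the whole list had a ratio of 1.25. RARβ had 22 and 52 peaks, a ratio of 2.36 (1.44 to 3.87), against 1.97 for the whole list. RXRα had 115 and 99 peaks, a ratio of 0.861 (0.659 to 1.13), against 0.975. Each whole-list ratio lay within the interval of the windows, so these genes could not be told apart from the genome by this ratio. The ratio is a net count and does not give the peaks gained and lost separately. The RXRα ratio was 1.05 with a minimum score of 100 and 1.0 with lists of equal length, so its direction depended on these settings. The RARβ ratio also moved with list length: with every list cut to its 14968 highest scores, the length of the RARβ control list, it was 1.09, and with the score minimum it was 4.0.

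Most peaks of the control diet were found again under RA. Peaks of 2 lists counted as shared where their overlap covered at least 25% of both widths. For RARα, 54 of 60 control peaks were shared with the RA list, or 90% (79.9 to 95.3), against 84.2% of the whole list. For RXRα it was 90 of 115, or 78.3% (69.9 to 84.8), against 78.7%, and for RARβ 15 of 22, or 68.2% (47.3 to 83.6), against 75.8%. Control peaks that were not shared ranked lower, with median ranks of 79.3% for RARα, 81% for RXRα and 86.2% for RARβ, compared with 52.6%, 41.2% and 40.4% for shared ones. The same was true over the whole lists, where unshared control peaks had medians of 81.7%, 80.1% and 75.1%.

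In regions, obtained by merging overlapping peaks of all lists and ranked by the best peak of each list in them, the 10 genes had 146 of 87787 in the genome. RARα had 51 regions in both diets, 6 under the control diet alone and 17 under RA alone. RARβ had 15, 6 and 36, and RXRα 87, 24 and 10. Regions called for RXRα under RA alone were thus few, 8.26% of its regions in the windows against 15.8% in the genome, and their best rank was 43.1%. The control list shared 89.9% (82.4 to 94.4) of the RXRα peaks seen under RA, more than the 80.3% of the whole list. Of the 24 RXRα regions found under the control diet alone, the best was at 25.1% and the median at 80.3%. RA alone gave 23% of the RARα regions in the windows against 27.3% in the genome. The 36 RARβ regions seen under RA alone reached up to 4.14%, the site 113.8 kb from the Elovl5 start. Their median was 62.6% and the weakest stood at 99.7%.

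**Figure D3:**
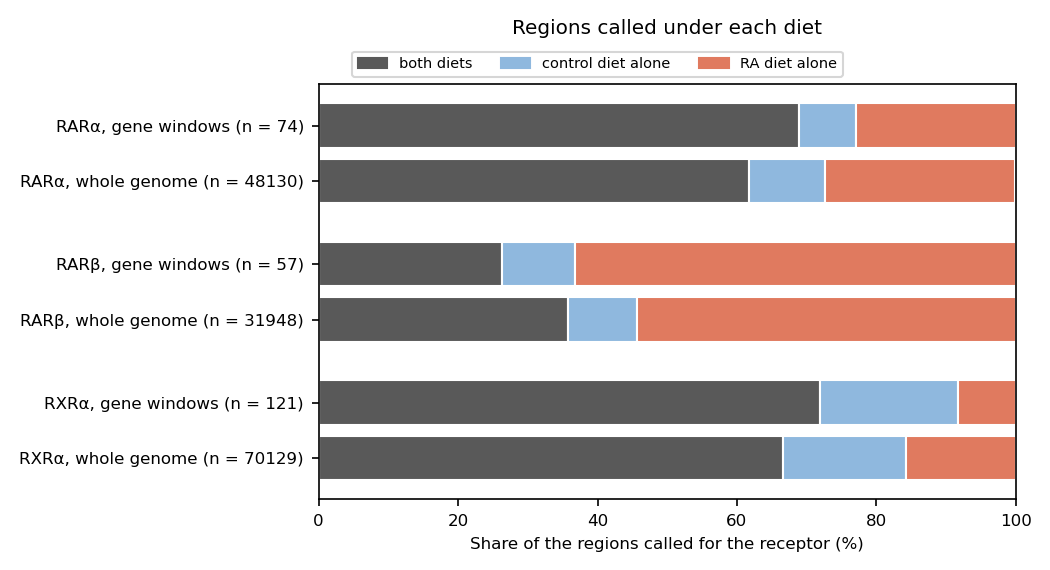
Share of the regions called for each receptor (horizontal axis, %) that were called in both diets, under the control diet alone or under RA alone, in the gene windows and in the whole genome, with the number of regions in brackets. RARβ regions were mostly seen under RA alone, 63.2% in the windows and 54.3% in the genome.

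Binding of the RARs was compared with that of RXRα under the same diet. In the windows, RXRα shared 42 of 60 RARα control peaks, or 70% (57.5 to 80.1), against 61.1% of the whole list, and 47 of 73 under RA, or 64.4% (52.9 to 74.4), against 61.7%. For RARβ the share was 14 of 22 under the control diet, or 63.6% (43 to 80.3), against 77.8%, and 48 of 52 under RA, or 92.3% (81.8 to 97), against 89.9%. All 4 whole-list values lay within the intervals. These shares depended on list length: with lists of equal length they were 25% and 28.0% for RARα and 36.4% and 70.8% for RARβ, and with a minimum score of 100 the RARα control share was 40.0%. In the other direction, 12.2% of RXRα control peaks in the windows were shared with RARβ and 48.5% of those under RA, where the whole lists gave 19.0% and 44.8%.

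The RARβ peaks called under RA alone lay where RXRα was called under the control diet. The RARβ control list was shorter, with 14968 peaks against 29467 under RA, so a site too weak for it counts as absent. Of the 52 RARβ peaks under RA, 37 did not touch a RARβ peak of the control diet, and all 37 overlapped an RXRα peak of the control diet by at least 1 bp. This share of 100% (90.6 to 100) compares with 86.4% of such RARβ peaks in the whole list, a value below the interval. The interval counts neighbouring peaks as independent. The windows were also denser in RXRα control peaks than the typical gene, with medians of 11 and 3.77 per 100 kb. The part of this density in the share was not tested. Against the RXRα list under RA, 35 of the 37 overlapped, 94.6% (82.3 to 98.5), and the whole-list share of 88.8% lay within that interval. For RARα, 11 of 18 such peaks overlapped an RXRα peak of the control diet, 61.1% (38.6 to 79.7), against 58.0%. In regions, 34 of 146 were called for RXRα in both diets and for RARβ under RA alone, 23.3% against 16.5% of all regions. Of these regions, 4 also had RARα under RA alone, 2.74% of the 146 against 3.86% in the genome, the site 5.71 kb inside Fads1, those at 32.7 and 149.7 kb from the Elovl6 start and that at 33.7 kb inside Elovl5.

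**Figure D4:**
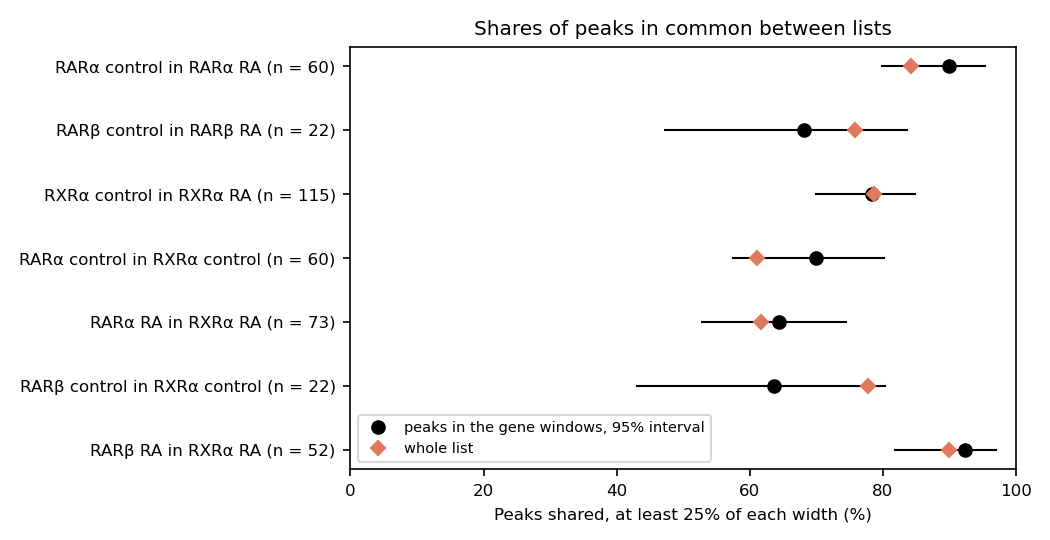
Share of peaks in the gene windows that overlapped the second list by at least 25% of each width (horizontal axis, %; filled circles with Wilson 95% intervals), next to the share in the whole list (diamonds). The whole-list values fall inside all 7 intervals.

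Across receptors, 55 regions were called for RXRα and for no RAR, 37.7% against 36.3% in the genome, and 38 for all 3 receptors, 26% against 25.8%. None of the 55 RXRα regions lay within 1 kb of a gene start, whereas 12 of the 38 regions with all 3 receptors did, 31.6%; in the genome the shares were 2.49% and 31.8%. RARα without the others accounted for 19 regions, 13% against 16.4%, and RARβ without the others for 4, 2.74% against 1.98%. A single list had called 37 regions, 25.3% against 29.4% of all regions.

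All 6 lists had called 12 regions, 8.22% against 9.76% of all regions. They were spread over Elovl1, Elovl2, Elovl3, Elovl4, Elovl5 and the Fads cluster, with none for Elovl6 and Elovl7. Of the 12 regions, 7 were nearest to the start of a gene studied here and 3 lay within 1 kb of another start, those of Smim13, Gbf1 and Ttk. At the Elovl6 and Fads2 promoters the RARβ control list was the only 1 of the 6 without a call, at the Elovl5 promoter it was the RXRα list under RA, and at the Elovl3 start the RXRα control list. Leaving the RARβ control list out of the rule raised the number of regions from 12 to 27. The share of all regions under this looser rule is not given here, so the 27 have no background beside them.

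**Figure D5:**
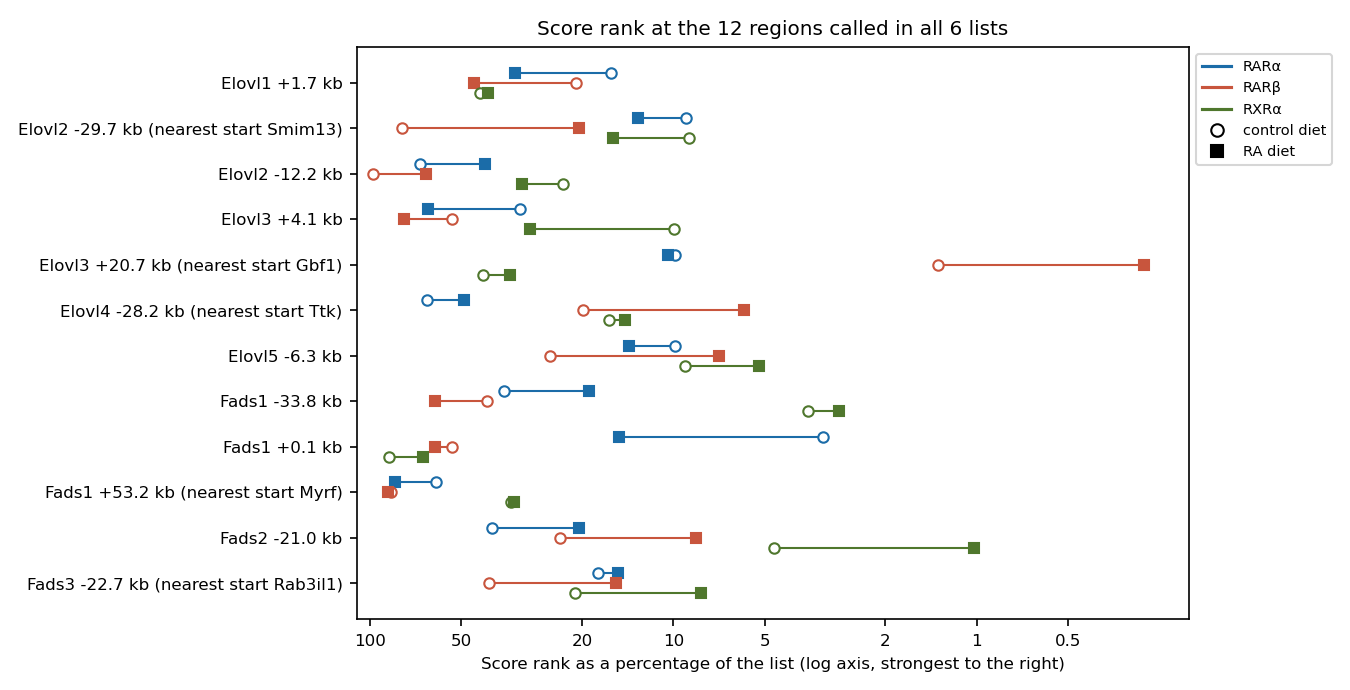
Score rank (horizontal log axis, percentage of the list, strongest to the right) at the 12 regions called in all 6 lists, with open circles for the control diet, squares for RA and colours for the receptors; region names give the distance from the gene start, and the rank is that of the best peak of the list in the region. The RARβ ranks at the Gbf1 start near Elovl3 are the highest, 1.34% and 0.282%, and RXRα reaches 1.02% upstream of Fads2.

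The enzymes and regulators that work with these genes had peaks as well. Of 6 enzymes of the other steps of elongation, 5 had a RARα peak within 10 kb of the start in each diet, 3 and 5 a RARβ peak, and 5 and 5 an RXRα peak. Hacd3, a dehydratase of the elongation cycle, was the best-ranked of them for RXRα under RA at 22.1%, and Hacd4 had none in any list. Of 7 other desaturases, 4 and 5 had a RARα peak, 3 and 3 a RARβ peak, and 5 and 6 an RXRα peak. Scd1, the stearoyl-CoA desaturase of liver, led them at 0.933% of the RXRα list under RA, and Scd4 had none. All 3 electron donors of the desaturases and all 8 regulators of fatty acid synthesis had a peak in each list, with Cyb5a at 27.6% and Ppara at 0.974% as the best of the RXRα list under RA. These counts stand beside the 44.1% to 63.3% of all genes given above.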

How the data were processed

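Peak lists of 6 ChIP-seq libraries (RARα, RARβ and RXRα under the control and RA diets) were analysed as deposited, each assigned to its receptor and diet by the sample titles. The authors aligned single-end reads of 35 bp to mm10 with Bowtie and called peaks with MACS, and the submitters' processing notes also name CASAVA 1.4. The deposited score is the caller's value for each peak, not normalized between libraries, with a lowest value of 50. The input library was not analysed here on its own.

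Gene spans came from RefSeq GRCm38.p6. Strands came from its promoter table (17492 genes) or, by symbol, from GENCODE M1 (4044 genes), for 98.4% of 21887 protein-coding genes; the start is the outermost one. Exons, introns and the sequences of peaks away from starts were not analysed here. BED positions were converted to 1-based ones. All 10 genes were named, with the best-ranked peak and the peak nearest the start in each list, regions called in all 6 lists and regions called in 1 diet; partner genes were given as counts, with the best one named. Of these regions and peaks, those shown in the text are the clearest for each gene and were chosen after their values were seen. The genes and the gene lists were chosen with earlier results of these data known. Shares have Wilson 95% intervals. Intervals of the ratios were derived from the Wilson interval of RA peaks among the RA and control peaks together, without pairing shared peaks. Python 3.11.15, pandas 2.3.3, numpy 2.4.6 and scipy 1.17.1 were used, and the counting steps were tested on simulated peaks. Alternatives were a minimum score of 100, lists of equal length, peaks nearest to an own start, a window of 10 kb, a distance of 1 kb, overlaps of 1 bp or 50%, joining within 200 bp and covered length; the nearest annotated start and the rule without the RARβ control list were added after seeing the data.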

Additional observations from a re-analysis of the deposited data

Results flagged for a closer look

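The RA to control ratio of the number of peaks in the gene windows went in different directions between receptors: 1.22 for RARα, 2.36 for RARβ and 0.861 for RXRα. Each ratio compares 1 library with 1 library, and the difference between receptors was not tested. With lists of equal length they were 1.25, 1.09 and 1.0, and the covered length gave ratios of 1.02, 3.67 and 0.985 in the same order. The length of the lists moved with these ratios: the whole lists had ratios of 1.25, 1.97 and 0.975; its part in the result was not tested.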

How the results depend on the processing

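Of 93 alternative values, 70 moved by less than the margin set for them, 23 moved further and 0 were counted as reversed. The RXRα ratio, whose interval included 1, crossed 1 with the minimum score, and this value is counted among the 70. With a minimum score of 100, 3 genes had a RARβ control peak within 10 kb, the RARβ ratio was 4.0, the shares of control peaks found under RA were 100% for RARβ and 87.7% for RXRα, the shares of control peaks found with RXRα were 40.0% for RARα and 83.3% for RARβ, and 4 regions were called in all lists. With lists of equal length, 4 genes had an RXRα peak within 10 kb in each diet, the RARβ ratio was 1.09, the share of RARβ control peaks found under RA was 40.9%, the shares found with RXRα were 25% and 28.0% for RARα (control and RA) and 36.4% and 70.8% for RARβ, and 4 regions were called in all lists. Counting only peaks nearest to an own start gave 7 such regions, a window of 10 kb gave 4, and leaving out the RARβ control list, added after seeing the data, gave 27. Within 1 kb, 5 genes had an RXRα peak in each diet. An overlap of 50% gave 49.3% for RARα peaks under RA and 36.4% for RARβ control peaks found with RXRα. The causes were not tested. The RARα and RARβ ratios stayed above 1 under each setting tried; the RXRα ratio was 1.05 with the minimum score and 1.0 with lists of equal length. No paired analysis was possible because each receptor and diet has 1 library and the results come from no test. Depth is unknown, and peaks too weak to be called in a shorter list are counted as missing.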
